A study of Oryza sativa with 10 samples.

Results

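Sucrose synthase splits sucrose, in the presence of UDP, into UDP-glucose and fructose, and the reaction runs in both directions. Because it keeps the energy of the glycosidic bond in UDP-glucose, it is known as the cheaper route into sugar breakdown where oxygen is short, while invertase hydrolyses sucrose outright into glucose and fructose. UDP-glucose is also the substrate of cellulose and callose synthesis, and sucrose synthase is a usual marker of sink strength in roots and filling seeds.

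The 6 rice loci whose deposited descriptions name sucrose synthase were described here, chosen by their locus identifiers from 37869 loci in all. They carried 8 of the 41635 transcript rows, with 2 rows each for Os06g0194900 and Os02g0831500 and 1 row for each of the other 4 loci. All 6 loci had values above 0 in the 10 libraries, the condition for being tested, as did 29915 loci in all. The locus identifiers place Os02g0831500 on chromosome 2, Os03g0340500 and Os03g0401300 on chromosome 3, Os04g0309600 on chromosome 4, Os06g0194900 on chromosome 6 and Os07g0616800 on chromosome 7. The deposited text calls both Os03g0401300 and Os06g0194900 a sucrose synthase 2, so locus identifiers are used throughout. The RefSeq gene table (assembly ASM3414082v1) lists 7 rice genes with SUS synonyms. By chromosome alone, SUS2 would be the locus on chromosome 6, SUS3 that on chromosome 7 and SUS6 that on chromosome 2, whereas chromosomes 3 and 4 hold 2 SUS genes each, which the table does not pair with these identifiers.

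RNA-Seq had been run on roots of rice cultivar Illmi, with 2 libraries for each of 5 groups. In 4 groups, one member of the NAC family of plant transcription factors was overproduced with a MYC tag from the RCc3 promoter, which is active mainly in roots: RCc3:myc-OsNAC5, RCc3:OsNAC6-myc, RCc3:myc-OsNAC9 and RCc3:OsNAC10-myc, called by their OsNAC names below. The fifth group was non-transgenic Illmi (NT). The labels give an age of 20 days and ordinary growth, while the study's methods have all seedlings under water for several days before harvest, and no group here lacked that step if it was applied. Plants with the most tagged protein had been picked from several transformants per construct, and how many transformants stand behind the libraries was not stated in the sources used here.

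Libraries were checked on their labels first, in FPKM (fragments scaled to transcript length and to the mapped fragments of the library) summed per locus. Each overexpressed gene was highest in its own line, but only OsNAC9 (Os03g0815100, 413 and 558 FPKM in OsNAC9 roots, 50.1 and 49.8 FPKM in NT roots) and OsNAC5 (Os11g0184900, 146 and 154 FPKM in OsNAC5 roots, 46.6 and 45.3 FPKM in NT roots) passed 1.5 fold. OsNAC6 (Os01g0884300) had 129 and 123 FPKM in OsNAC6 roots and 96.5 and 96.4 FPKM in NT roots, and OsNAC10 (Os11g0126900) had 35.1 and 34.7 FPKM in OsNAC10 roots and 27.4 and 27.1 FPKM in NT roots. Of 5 root marker genes, 4 were strongly expressed, led by RCc3 (Os02g0662000) at 1660 to 2667 FPKM in the lines and 1878 and 1927 FPKM in NT, while the ammonium transporter gene Os02g0620500 was close to 0 in every library (0.0174 to 0.112 FPKM). The 23 leaf marker loci summed to only 14.8 to 20.6 FPKM in the lines and 16.5 to 19.8 FPKM in NT, with 4 of them at 0 throughout. The descriptions of 50 loci name glutelin or prolamin, seed storage proteins, and include a glutelin-processing protease (Os04g0537900) at 34.5 to 42.3 FPKM. These loci summed to 388 to 525 FPKM in OsNAC5, OsNAC6 and OsNAC10 roots, 1194 and 1223 FPKM in OsNAC9 roots and 441 and 466 FPKM in NT roots. Outside OsNAC9 roots, much of the sum came from loci described only as glutelin family proteins, such as Os01g0111900 (222 and 220 FPKM in OsNAC10 roots, 149 and 145 FPKM in NT roots). The prolamin Os07g0206500 had 129 and 134 FPKM in OsNAC9 roots, 0.0527 and 0.0631 FPKM in OsNAC10 roots and 16.2 and 12.8 FPKM in NT roots. Of the 23 tested, 18 were higher in OsNAC9 roots, where 10.6% of all tested loci were called in either direction. In OsNAC5, OsNAC6 and OsNAC10 roots 17, 16 and 17 were lower (3.28%, 7.6% and 10.4% of all). The 2 OsNAC6 libraries differed most from each other: among 4437 loci of 30 to 300 FPKM their median absolute log2 difference was 0.22, against 0.05 between the NT libraries. What part these differences had in the results below was not tested.

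Summed over the 6 loci, sucrose synthase transcripts were lower in every line library than in both NT libraries. The sum was 172 and 190.4 FPKM in OsNAC5 roots, 143 and 146 FPKM in OsNAC6 roots, 147 and 166 FPKM in OsNAC9 roots and 151 and 129 FPKM in OsNAC10 roots, against 213 and 233 FPKM in NT roots. As a share of the NT mean, OsNAC5 stood at 81.3%, OsNAC9 at 70.2%, OsNAC6 at 64.9% and OsNAC10 at 62.9%. The sum is a description, with no test of its own, and in whole roots fewer cells of a type and less RNA per cell cannot be told apart.

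**Figure D1:**
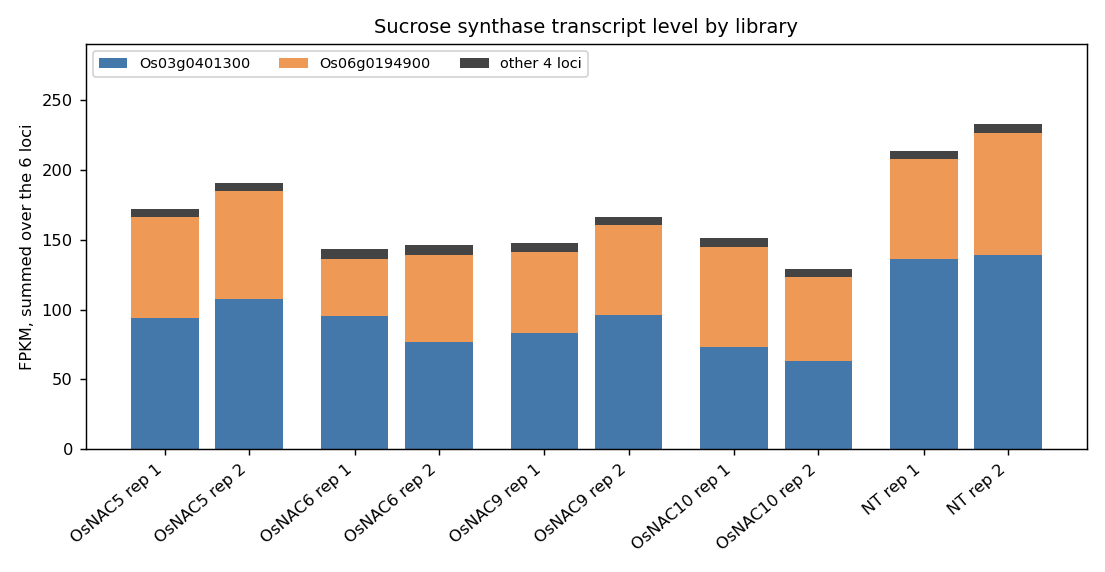
Stacked bars give the FPKM sum of the 6 sucrose synthase loci in each library, with the lines left of NT, split into Os03g0401300, Os06g0194900 and the other 4 loci. The 8 line libraries reach 129 to 190.4 FPKM and the 2 NT libraries 213 and 233 FPKM, and the top segment is thin in all 10.

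Root sucrose synthase RNA came almost wholly from 2 loci. Os03g0401300 and Os06g0194900 together made up 94.9 to 97.2% of the sum in the line libraries and 97.2 to 97.3% in the NT libraries. Os03g0401300 averaged 96.5 FPKM over the 10 libraries and ranked 1342 among all loci, and Os06g0194900 averaged 66.4 FPKM and ranked 2042. The next 3, Os02g0831500, Os03g0340500 and Os04g0309600, averaged 2.71, 1.98 and 1.48 FPKM. Os07g0616800, described as sucrose synthase 3, was close to absent at 0.0538 FPKM. These are levels per kilobase, so loci can be set beside each other, but how fragments that match several members of the family were shared out was not stated, and near-identical stretches make the split between members uncertain.

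**Figure D2:**
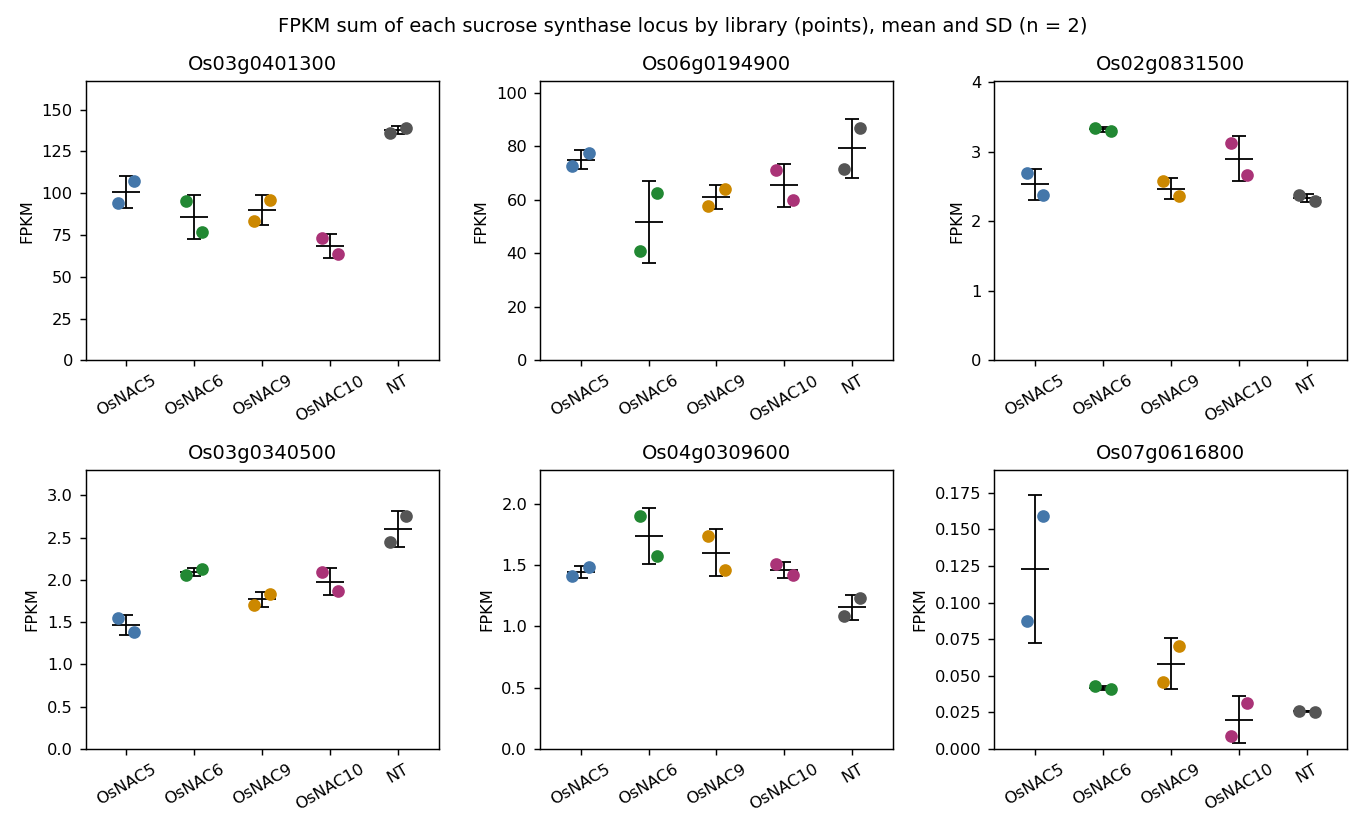
Each panel plots the FPKM sum of 1 sucrose synthase locus (y axis from 0, own scale) in the 4 lines and, at the right, NT, with a point for each library and a bar for the mean with its SD (n = 2). In the panels of Os03g0401300 and Os03g0340500 all line points lie below the NT points, and in the panel of Os04g0309600 all lie above them.

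Os03g0401300, the most abundant member, had the clearest difference from NT. It had 94.0 and 108 FPKM in OsNAC5 roots, 95.1 and 76.6 FPKM in OsNAC6 roots, 83.5 and 96.1 FPKM in OsNAC9 roots and 73.4 and 63.4 FPKM in OsNAC10 roots, against 136 and 139 FPKM in NT roots. No line library overlapped the NT pair, and the highest line value, in OsNAC5 roots, was still well under the lower NT value. Of all tested loci, 14.6% had all 8 line libraries below both NT libraries. Group means were 101 ± 9.61 FPKM for OsNAC5, 85.8 ± 13.1 FPKM for OsNAC6, 89.8 ± 8.97 FPKM for OsNAC9, 68.4 ± 7.06 FPKM for OsNAC10 and 138 ± 2.24 FPKM for NT (SD, n = 2 each).

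The test was limma on log2(FPKM + 1) across all 29915 loci, two-sided and adjusted by Benjamini-Hochberg, and a locus was called when its unadjusted p was under 0.05 and its change at least 1.5 fold. Os03g0401300 fell in OsNAC10 roots by 1.00 on the log2 scale (SE 0.13, adjusted p = 0.000979), to 49.7% of the NT mean. It fell by 0.68 in OsNAC6 roots (SE 0.13, adjusted p = 0.00667) and by 0.61 in OsNAC9 roots (SE 0.13, adjusted p = 0.0136), which put these groups at 62.3% and 65.2% of the NT mean. In OsNAC5 roots the log2 difference was -0.45 (SE 0.13, adjusted p = 0.0807), at 73.2% of the NT mean, and was not called. The 4 comparisons share the same 2 NT libraries. The calls in OsNAC6 and OsNAC9 roots sat close to the fold threshold: without OsNAC6 replicate 2 the OsNAC6 difference was -0.53 (limma adjusted p = 0.0179), and without OsNAC9 replicate 1 the OsNAC9 difference was -0.51 (limma adjusted p = 0.0825), both under 1.5 fold.

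Ordered by level, Os03g0401300 stood at NT, OsNAC5, OsNAC9, OsNAC6 and OsNAC10, from high to low. OsNAC9 and OsNAC5 roots differed by -0.17 on the log2 scale (limma 95% interval -0.46 to 0.13), OsNAC9 and OsNAC6 roots by 0.07 (-0.23 to 0.36) and OsNAC10 and OsNAC6 roots by -0.32 (-0.61 to -0.02, adjusted p = 0.191), so no neighbours among the lines were separated after adjustment. The ends of the line order were: OsNAC10 roots were below OsNAC5 roots by 0.55 on the log2 scale, a difference of -0.55 (SE 0.13, limma adjusted p = 0.0252) that did not reach 1.5 fold. In that comparison 14.4% of all tested loci had an adjusted p under 0.05, and Os03g0401300 was the 1 member that did.

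Os06g0194900 was the second main member. Its replicates differed more on the log2 scale than those of Os03g0401300 in OsNAC6, OsNAC10 and NT roots, and less in OsNAC5 and OsNAC9 roots. Its 2 transcripts summed to 72.4 and 77.4 FPKM in OsNAC5 roots, 40.7 and 62.5 FPKM in OsNAC6 roots, 57.7 and 64.1 FPKM in OsNAC9 roots and 71.1 and 59.8 FPKM in OsNAC10 roots, against 71.4 and 87.0 FPKM in NT roots. The libraries of OsNAC6, OsNAC9 and OsNAC10 lay below both NT libraries, that of OsNAC10 replicate 1 by a hair, and OsNAC5 overlapped NT. Here and below, separation of a single line from NT is a description only. The share of all tested loci that separate so in a single line is not given here. The NT replicates themselves differed by 0.28 on the log2 scale, more than 98.9% of loci of 30 to 300 FPKM did, and the OsNAC6 replicates differed by 0.61.

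Os06g0194900 was called in OsNAC6 roots only, with a log2 change of -0.63 (SE 0.19, limma adjusted p = 0.0405) and a mean of 51.6 ± 15.4 FPKM, against 79.2 ± 11.0 FPKM in NT roots (SD, n = 2 each). This call was lost without OsNAC6 replicate 1 (log2 change -0.33, limma adjusted p = 0.143) and without NT replicate 2 (-0.49, limma adjusted p = 0.225). The other differences from NT were -0.37 in OsNAC9 roots (95% interval -0.80 to 0.06), -0.27 in OsNAC10 roots (-0.70 to 0.16) and -0.07 in OsNAC5 roots (-0.51 to 0.36), intervals that leave room for a fall of 1.5 fold in OsNAC9 and OsNAC10 as well as for none. OsNAC6 and OsNAC5 roots differed by -0.56 (limma adjusted p = 0.134), so the lines were not shown to differ from each other with all libraries in the fit. Without OsNAC5 replicate 1 that difference was -0.61 and was called, though its limma adjusted p was 0.294. Without OsNAC6 replicate 2 it was -0.86 (limma adjusted p = 0.0129), and OsNAC10 roots stood above OsNAC6 roots by 0.67 (limma adjusted p = 0.0192).

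**Figure D3:**
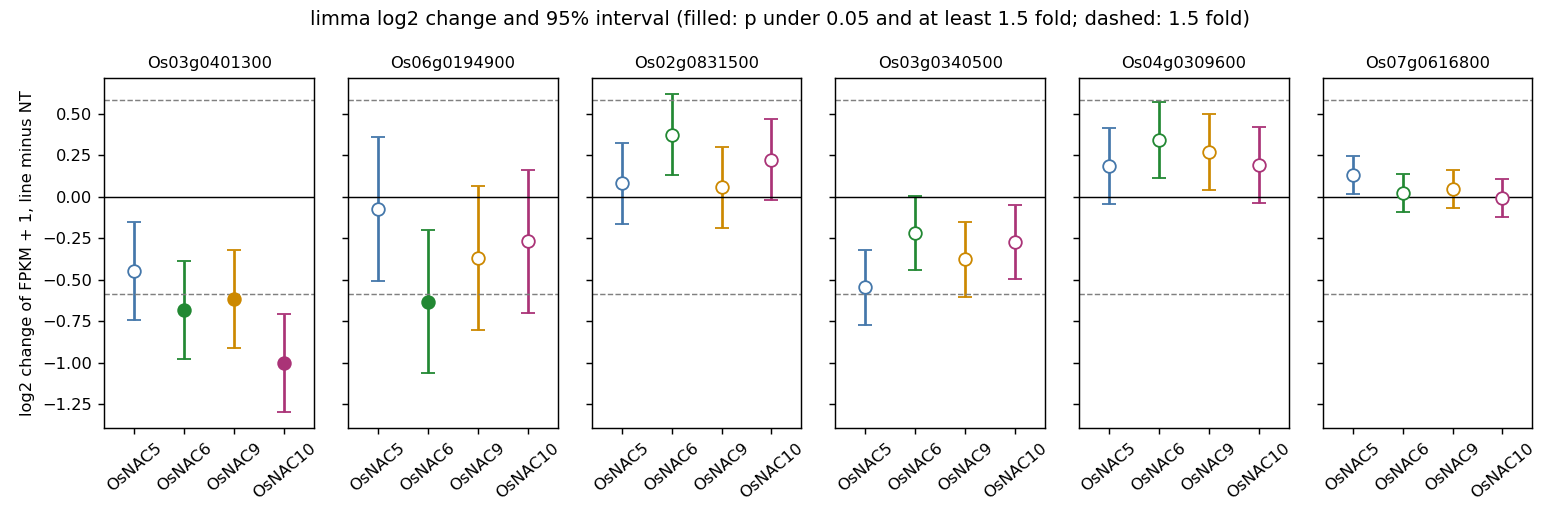
For each sucrose synthase locus (panels) the limma log2 change of FPKM + 1, line minus NT, is drawn with its 95% interval for the 4 lines, filled where the locus was called, with dashed lines at 1.5 fold. Filled points appear for Os03g0401300 in OsNAC6, OsNAC9 and OsNAC10 roots (-0.68, -0.61 and -1.0) and for Os06g0194900 in OsNAC6 roots (-0.63).

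Counted over the family, 2 of 6 loci were called in OsNAC6 roots, where 13.4% of all tested loci were, 1 of 6 in OsNAC9 roots (10.6% of all), 1 of 6 in OsNAC10 roots (15.4% of all) and 0 of 6 in OsNAC5 roots (5.66% of all). All called members were lower, a direction taken by 7.6% of all tested loci in OsNAC6 roots, 5.55% in OsNAC9 roots, 10.4% in OsNAC10 roots and 3.28% in OsNAC5 roots. With 6 loci, a count of 1 or 2 is not far from these shares. By an adjusted limma p under 0.05, whatever the fold or direction, 1 of 6 loci passed in OsNAC5 roots (7.27% of all), 4 of 6 in OsNAC6 roots (25.7%), 2 of 6 in OsNAC9 roots (18.6%) and 1 of 6 in OsNAC10 roots (29.2%). The 4 in OsNAC6 roots included Os02g0831500 and Os04g0309600, which were higher there (log2 differences 0.37 and 0.34). In OsNAC5 roots, 3 of 6 loci had an unadjusted limma p under 0.05, as did 20.6% of all tested loci. The median log2 change of the 6 loci was 0.00 for OsNAC5, -0.10 for OsNAC6, -0.16 for OsNAC9 and -0.14 for OsNAC10 roots, beside 0.02, 0.01, 0.02 and 0.02 over all tested loci.

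The balance between the main loci was not the same in every group. Os03g0401300 had 1.03 and 1.06 times the FPKM of Os06g0194900 in OsNAC10 roots, against 1.91 and 1.60 times in NT roots. This ratio was 1.30 and 1.39 in OsNAC5 roots and 1.45 and 1.501 in OsNAC9 roots, both below the NT pair, while in OsNAC6 roots it was 2.33 in one library and 1.22 in the other, on either side of NT. These ratios are a description. Over the 10 libraries the log2 levels of the 2 loci had a Pearson correlation of 0.42, computed over points that fall into 5 groups.

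The deposited transcripts of Os06g0194900 differed greatly in level. Os06t0194900-01 carried nearly all of the locus and followed its sum. Os06t0194900-03 made up 1.08 and 1.49% of it in OsNAC5 roots, 1.45 and 0.904% in OsNAC6 roots, 1.26 and 0.927% in OsNAC9 roots and 0.640 and 0.574% in OsNAC10 roots, against 1.85 and 1.44% in NT roots. How fragments were divided between overlapping transcripts of a locus is an estimate by the authors' software, so a share this small is uncertain.

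Os06t0194900-03 itself had 0.783 and 1.15 FPKM in OsNAC5 roots, 0.589 and 0.565 FPKM in OsNAC6 roots, 0.726 and 0.594 FPKM in OsNAC9 roots and 0.456 and 0.343 FPKM in OsNAC10 roots, against 1.32 and 1.25 FPKM in NT roots. All 8 line libraries were below both NT libraries, as they were for 14.5% of the 33178 tested transcripts. In the limma fit over transcripts it fell in OsNAC10 roots by 0.71 on the log2(FPKM + 1) scale (SE 0.10, adjusted p = 0.00227), the only line in which it was called. Differences were -0.54 in OsNAC6 roots (adjusted p = 0.00874) and -0.46 in OsNAC9 roots (adjusted p = 0.0201), both under 1.5 fold on that scale, which understates change at such levels. With 0.1 FPKM added in place of 1 FPKM they were -1.04 (limma adjusted p = 0.0162) and -0.87 (limma adjusted p = 0.0382) and were called. In OsNAC5 roots the difference was -0.22 (limma adjusted p = 0.280), and OsNAC10 roots stood below OsNAC5 roots with a difference of -0.49 (limma adjusted p = 0.0203), a comparison in which 13.7% of tested transcripts had an adjusted p under 0.05.

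**Figure D4:**
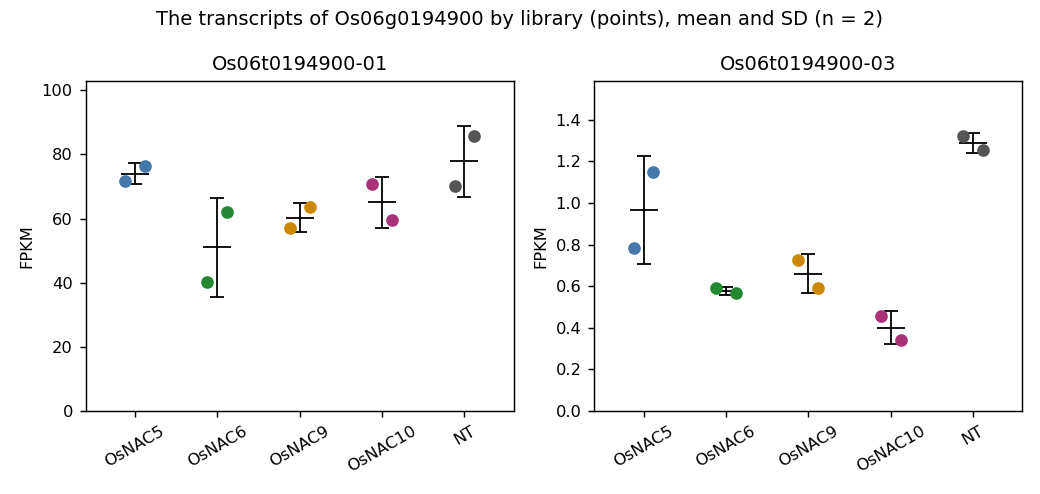
FPKM of Os06t0194900-01 (left) and Os06t0194900-03 (right) in the 4 lines and NT, with a point for each library and a bar for the mean and SD (n = 2), each axis from 0. The scales differ: the left panel spans 40.1 to 85.7 FPKM and the right panel 0.343 to 1.32 FPKM, with OsNAC10 lowest in the right panel.

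Os06t0194900-01 had 71.7 and 76.2 FPKM in OsNAC5 roots, 40.1 and 62.0 FPKM in OsNAC6 roots, 57.0 and 63.5 FPKM in OsNAC9 roots and 70.7 and 59.4 FPKM in OsNAC10 roots, against 70.1 and 85.7 FPKM in NT roots. OsNAC5 and OsNAC10 each overlapped NT here. Its change in OsNAC6 roots was -0.63 (SE 0.20, limma adjusted p = 0.0538), past the call rule but not past an adjusted threshold. It was not called with each library centred on its median (-0.58, limma adjusted p = 0.0478), without OsNAC6 replicate 1 (-0.32, limma adjusted p = 0.179) or without NT replicate 2 (-0.48, limma adjusted p = 0.262). Of the 8 transcript rows, 2 were called in OsNAC6 roots (13.8% of all tested transcripts), 1 in OsNAC9 roots (10.6%), 2 in OsNAC10 roots (16.6%) and 0 in OsNAC5 roots (5.5%, with 3 of 8 at an unadjusted limma p under 0.05, beside 19.4% of all), and rows of 1-transcript loci repeat the values of their locus.

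The 3 members at 1 to 4 FPKM lay on different sides of NT, and none was called. Os03g0340500 had 1.55 and 1.38 FPKM in OsNAC5 roots, 2.06 and 2.13 FPKM in OsNAC6 roots, 1.71 and 1.83 FPKM in OsNAC9 roots and 2.09 and 1.87 FPKM in OsNAC10 roots, against 2.45 and 2.75 FPKM in NT roots. It was below NT in all 8 line libraries, and its lowest group was OsNAC5, where the more abundant Os03g0401300 was least below NT. The log2 difference was -0.55 in OsNAC5 roots (SE 0.10, limma adjusted p = 0.0117), just short of 1.5 fold at a pseudocount of 1 FPKM, and the mean was 56.3% of that in NT. It was called there with 0.1 FPKM added (-0.79, limma adjusted p = 0.0174), without OsNAC5 replicate 1 (-0.60, limma adjusted p = 0.0503) and without NT replicate 1 (-0.61, limma adjusted p = 0.0540). Differences in the other lines were -0.38 in OsNAC9 (limma adjusted p = 0.0307), -0.27 in OsNAC10 (limma adjusted p = 0.0677) and -0.22 in OsNAC6 roots (limma adjusted p = 0.138).

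Os04g0309600 was the one member above NT in all 8 line libraries. It had 1.41 and 1.48 FPKM in OsNAC5 roots, 1.90 and 1.57 FPKM in OsNAC6 roots, 1.74 and 1.46 FPKM in OsNAC9 roots and 1.51 and 1.42 FPKM in OsNAC10 roots, against 1.08 and 1.23 FPKM in NT roots. The log2 differences were small, 0.34 in OsNAC6 (SE 0.10, limma adjusted p = 0.0378), 0.27 in OsNAC9 roots, 0.19 in OsNAC10 roots and 0.18 in OsNAC5 roots, with only the first past an adjusted p of 0.05. Among all tested loci, 14.6% had every line library below both NT libraries and 14.5% had every one above, and of the 6 members 2 were below (Os03g0401300 and Os03g0340500) and 1 above.

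Os02g0831500 was highest in OsNAC6 roots. Its 2 transcripts summed to 2.69 and 2.37 FPKM in OsNAC5 roots, 3.34 and 3.29 FPKM in OsNAC6 roots, 2.57 and 2.36 FPKM in OsNAC9 roots and 3.13 and 2.67 FPKM in OsNAC10 roots, against 2.38 and 2.29 FPKM in NT roots. OsNAC6 and OsNAC10 lay above NT, and OsNAC5 and OsNAC9 overlapped it, again a description without a share over all loci. The log2 difference in OsNAC6 roots was 0.37 (SE 0.11, limma adjusted p = 0.0346), under 1.5 fold, and those of the other lines were 0.22, 0.08 and 0.06 for OsNAC10, OsNAC5 and OsNAC9. Its transcript Os02t0831500-01 had a log2 difference of 0.43 in OsNAC6 roots (limma adjusted p = 0.0216), or 0.60 and called with 0.1 FPKM added (limma adjusted p = 0.0273). Os02t0831500-02, at 0.285 to 0.802 FPKM in the lines and 0.758 and 0.394 FPKM in NT, had 95% intervals that included 0 in every line.

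Os07g0616800, described as sucrose synthase 3, was at the limit of detection. It had 0.0876 and 0.159 FPKM in OsNAC5 roots, 0.0429 and 0.0409 FPKM in OsNAC6 roots, 0.0458 and 0.0706 FPKM in OsNAC9 roots and 0.00884 and 0.0315 FPKM in OsNAC10 roots, against 0.0261 and 0.0252 FPKM in NT roots. Scaled by relative depth, which was read from the ratios of low values between libraries, these levels were whole multiples of the lowest one to within 0.0347. If that lowest value is 1 fragment, the libraries hold 8 and 15 fragments in OsNAC5 roots, 3 and 4 in OsNAC6 roots, 4 and 6 in OsNAC9 roots, 1 and 3 in OsNAC10 roots, and 2 and 3 in NT. Both OsNAC5 libraries thus stood above every other library. At a pseudocount of 1 FPKM the OsNAC5 difference was 0.13 on the log2 scale (limma adjusted p = 0.182) and not called, and with 0.1 FPKM added it was 0.81 (limma adjusted p = 0.0799) and called. The adjusted p passed 0.05 under neither.

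A further locus, Os04g0249500, carries the same deposited description as transcript Os02t0831500-02, which does not name the enzyme, and was looked at after its values were seen. It had 0.543 to 0.907 FPKM in the lines and 0.556 and 0.516 FPKM in NT, was not counted with the 6 members and was not tested as one.

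The loci whose log2 level ran most like a main member over the 10 libraries were picked from 24301 others with a mean of at least 1 FPKM. For Os03g0401300 they were Os03g0114100 (Pearson r = 0.99), Os07g0161650 (r = 0.99) and Os06g0172901 (r = 0.99), all described only as hypothetical proteins. Os03g0114100, for one, averaged 2.12 FPKM in OsNAC5 roots, 1.78 in OsNAC6 roots, 1.83 in OsNAC9 roots and 1.11 in OsNAC10 roots and 3.95 FPKM in NT roots. For Os06g0194900 they were Os06g0663900, described as a protein kinase (r = 0.96), Os09g0511500, a RING-type zinc finger protein (r = 0.96), and Os01g0193900, a homeodomain-like protein (r = 0.95). With 5 groups of 2 and this many loci to choose from, high values are a description of likeness and carry no test.

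Other enzymes that handle the same sugars were set beside the family, from lists found by words in the deposited descriptions. For the counts below, 5.66%, 13.4%, 10.6% and 15.4% of all tested loci were called in OsNAC5, OsNAC6, OsNAC9 and OsNAC10 roots. Those called lower were 3.28%, 7.6%, 5.55% and 10.4% of all, in that order. Invertases, the other route of sucrose cleavage, went both ways. Of 14 tested, 2 were higher and 2 lower in OsNAC6 roots, 1 higher and 2 lower in OsNAC10 roots, and 1 was lower in each of OsNAC5 and OsNAC9 roots, and the list's median log2 change lay between -0.20 and -0.09. The cell wall invertase Os04g0413500, the most abundant, had 82.9 and 72.9 FPKM in OsNAC6 roots and 71.0 and 71.0 FPKM in OsNAC10 roots, against 40.9 and 40.2 FPKM in NT roots, and was higher by 0.92 and 0.79 on the log2 scale (limma adjusted p = 0.000123 and 0.000237). Os04g0535600, described as a beta-fructofuranosidase, was lower in all 4 lines, at 4.86 and 5.30 FPKM in OsNAC5 roots, 3.21 and 2.44 in OsNAC6 roots, 3.48 and 4.74 in OsNAC9 roots and 3.01 and 3.58 in OsNAC10 roots, against 7.94 and 8.78 FPKM in NT roots (log2 changes -0.62, -1.30, -0.88 and -1.13, limma adjusted p = 0.0526, 0.000863, 0.00675 and 0.00147). A second cell wall invertase, Os02g0534400, fell in OsNAC6 roots by 0.80 (limma adjusted p = 0.00122).

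Enzymes next to sucrose synthase passed no call. None of 5 UDP-glucose pyrophosphorylases, which convert UDP-glucose to glucose 1-phosphate, none of 2 tested fructokinases, which take up the fructose, and none of 7 tested loci of sucrose synthesis was called in any line. At an unadjusted limma p under 0.05 there were 0 to 2 of them per line in each of these lists. For fructokinases that was 2 of 2 in OsNAC10 roots, with a median log2 change of -0.45. In that line 13424 of 33178 tested transcripts had an unadjusted limma p under 0.05, a share over transcripts and not over loci. Over loci, that share is given here only for OsNAC5 roots (20.6%). Their median log2 changes lay between -0.17 and -0.03 for the UDP-glucose pyrophosphorylases, between -0.45 and 0.13 for the fructokinases and between -0.07 and 0.12 for sucrose synthesis. The leading UDP-glucose pyrophosphorylase, Os09g0553200, had log2 differences of -0.28 in OsNAC6 roots, -0.34 in OsNAC9 roots and -0.31 in OsNAC10 roots (limma adjusted p = 0.0165, 0.00859 and 0.00948) and -0.01 in OsNAC5 roots, all under 1.5 fold. The leading fructokinase, Os08g0113100, had log2 differences of 0.11 in OsNAC5 roots, -0.12 in OsNAC6 roots, -0.06 in OsNAC9 roots and -0.47 in OsNAC10 roots (lowest limma adjusted p = 0.0702). The leading sucrose phosphate synthase, Os06g0643800, differed by -0.36 in OsNAC9 roots (limma adjusted p = 0.0418), under 1.5 fold.

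Among hexose kinases, 1 of 8 tested hexokinases, Os05g0187100, fell in each line, with log2 changes of -0.88 in OsNAC5 roots, -0.85 in OsNAC6 roots, -1.18 in OsNAC9 roots and -0.64 in OsNAC10 roots (highest limma adjusted p = 0.00216), and a plastid-type one, Os07g0197100, rose in OsNAC10 roots by 0.62 (limma adjusted p = 0.00665). Of 6 phosphofructokinases, a glycolytic enzyme group that the search word also found, 1 was called, Os05g0524400. It had 11.5 and 13.6 FPKM in OsNAC5 roots, 11.1 and 8.71 FPKM in OsNAC6 roots, 12.5 and 15.7 FPKM in OsNAC9 roots and 6.82 and 7.24 FPKM in OsNAC10 roots, against 32.1 and 32.7 FPKM in NT roots (log2 changes -1.31, -1.62, -1.15 and -2.06, limma adjusted p at most 0.00112). The most abundant locus of that list, Os02g0714200, is described as the alpha subunit of the pyrophosphate-dependent enzyme. It was not called in any line, and neither was the leading hexokinase, Os05g0522500.

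Cellulose synthases, which draw on UDP-glucose, were lower where they were called. Their median log2 change lay between -0.59 and -0.49 for the primary wall loci and between -0.77 and -0.42 for the secondary wall loci in OsNAC6, OsNAC9 and OsNAC10 roots, and was -0.07 and -0.26 in OsNAC5 roots. Of 4 primary wall loci 2 were lower in each of OsNAC6, OsNAC9 and OsNAC10 roots and 0 in OsNAC5 roots. Of 3 secondary wall loci 1 was lower in OsNAC6 roots, 1 in OsNAC9 roots and 2 in OsNAC10 roots and 0 in OsNAC5 roots. Over all tested loci, 7.6% were lower in OsNAC6 roots, 5.55% in OsNAC9 roots, 10.4% in OsNAC10 roots and 3.28% in OsNAC5 roots. In OsNAC5 roots 0 primary and 1 secondary wall loci had an unadjusted limma p under 0.05. The most abundant secondary wall locus, Os09g0422500, was called in 0 lines. It had 14.4 and 12.7 FPKM in OsNAC6 roots and 13.2 and 13.8 FPKM in OsNAC10 roots, against 10.8 and 10.9 FPKM in NT roots (log2 differences 0.30 and 0.29, limma adjusted p = 0.0527 and 0.0506). Both lines lay above NT there, and its log2 differences were -0.15 in OsNAC9 and -0.03 in OsNAC5 roots. The primary wall locus Os05g0176100 had 55.9 and 62.4 FPKM in OsNAC6 roots, 62.1 and 61.6 FPKM in OsNAC9 roots and 64.9 and 42.2 FPKM in OsNAC10 roots, against 97.8 and 95.6 FPKM in NT roots (log2 changes -0.70, -0.64 and -0.87, limma adjusted p = 0.0173, 0.0318 and 0.00619). The secondary wall locus Os01g0750300 fell in the same lines by 1.04, 0.80 and 1.26 on the log2 scale (limma adjusted p = 0.00120, 0.00525 and 0.000384). Os07g0208500 fell in OsNAC9 (by 0.59) and OsNAC10 roots (by 0.68), with limma adjusted p of 0.0176 and 0.00667. Os07g0424400 fell in OsNAC6 roots by 1.02 (limma adjusted p = 0.0181). Its libraries there lay apart, at 9.88 and 18.2 FPKM, against 29.8 and 27.0 FPKM in NT roots. Os10g0467800 fell in OsNAC10 roots by 0.77 (limma adjusted p = 0.00817).

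Of 7 tested ADP-glucose pyrophosphorylase loci, which serve starch synthesis, none was called lower, and the list's median log2 change lay between 0.15 and 0.31. Os05g0580000 had 17.0 and 16.7 FPKM in OsNAC9 roots, against 4.90 and 4.16 FPKM in NT roots, a log2 change of 1.69 (limma adjusted p = 9.86e-05). Os08g0345800 rose in OsNAC5 roots by 0.72 (limma adjusted p = 0.0198) and in OsNAC6 roots by 0.85 (limma adjusted p = 0.00436). The most abundant, Os03g0208900, was not called in any line.

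Fermentation enzymes, which work with sucrose synthase where oxygen is short, showed the largest differences of these lists. The alcohol dehydrogenase locus Os11g0210500 had 310 and 291 FPKM in OsNAC5 roots, 148 and 128 FPKM in OsNAC6 roots, 243 and 275 FPKM in OsNAC9 roots and 137 and 136 FPKM in OsNAC10 roots, against 518 and 548 FPKM in NT roots, and fell in all 4 lines (log2 changes -0.83, -1.94, -1.04 and -1.96, highest limma adjusted p = 0.00139). Its neighbour in number Os11g0210300 fell in OsNAC5, OsNAC6 and OsNAC10 roots (log2 changes -0.59, -1.01 and -2.44), while in OsNAC9 roots the difference was -0.20 (limma adjusted p = 0.197).

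**Figure D5:**
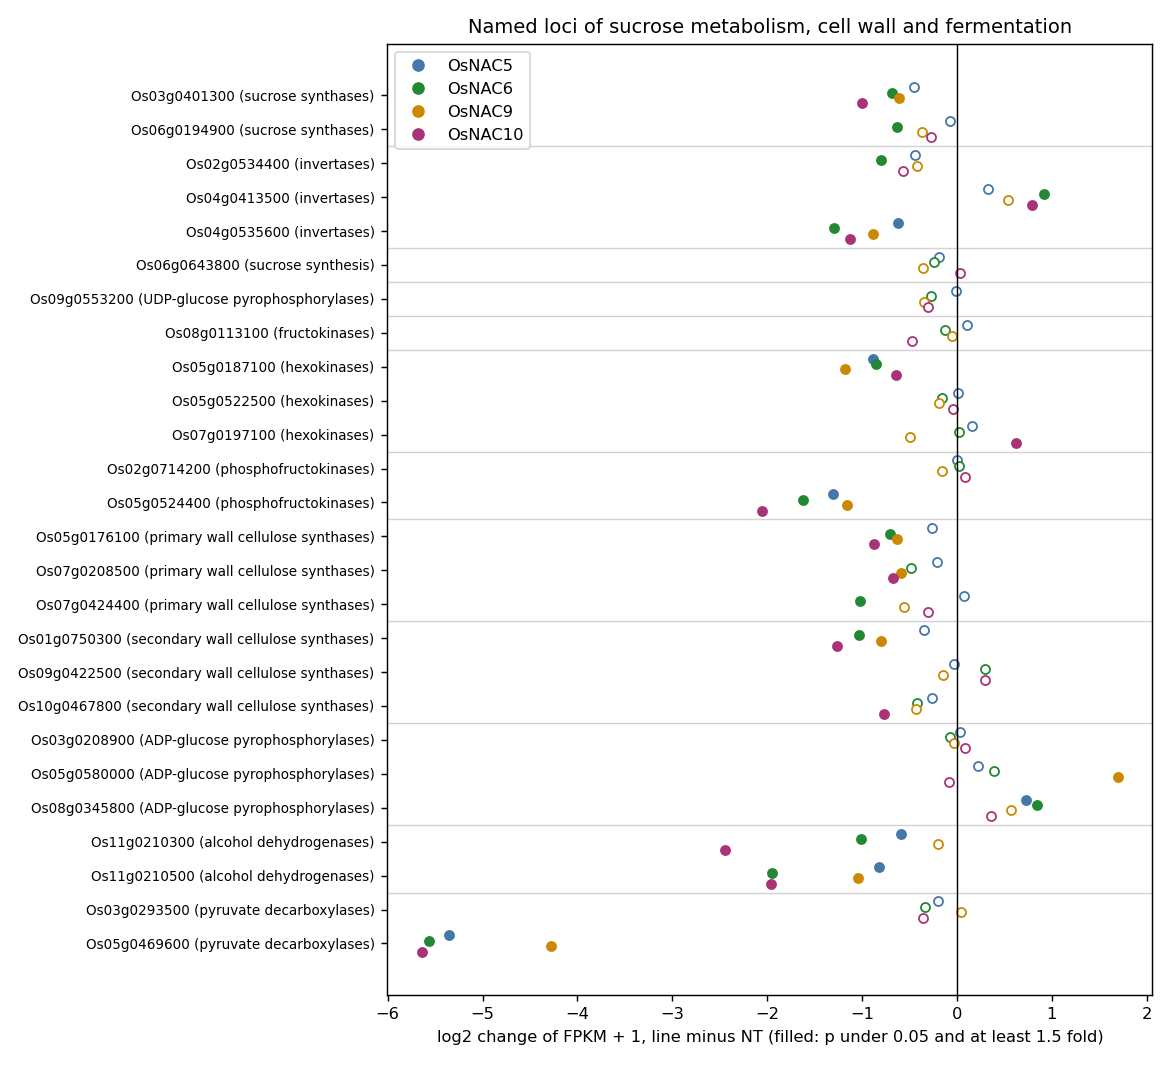
The limma log2 change of FPKM + 1, line minus NT, is plotted along the x axis for the named loci of sucrose cleavage and synthesis, sugar phosphorylation, cell wall, starch and fermentation, with a point for each line, filled where called. The pyruvate decarboxylase Os05g0469600 lies farthest left, between -5.64 and -4.28, and the 2 sucrose synthases at the top lie between -1.0 and -0.07.

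The pyruvate decarboxylase Os05g0469600 was close to 0 in the lines and well expressed in NT. It had 0.322 and 0.359 FPKM in OsNAC5 roots, 0.128 and 0.196 FPKM in OsNAC6 roots, 1.73 and 1.92 FPKM in OsNAC9 roots and 0.158 and 0.0537 FPKM in OsNAC10 roots, against 54.7 and 53.3 FPKM in NT roots. Its log2 changes were -5.36, -5.56, -4.28 and -5.64 (highest limma adjusted p = 1.06e-07). The other pyruvate decarboxylase, Os03g0293500, was more abundant, at 132 ± 0.723 FPKM in OsNAC10 roots and 169 ± 4.07 FPKM in NT roots (SD, n = 2 each), and was not called in any line.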

How the data were processed

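Rice root RNA-Seq libraries (10 in 5 groups of 2, grouped and numbered by sample title) were analysed from the deposited FPKM values. Per the labels and the study's methods, the authors trimmed adaptors, contaminants, duplicates and low-quality reads and mapped with TopHat to IRGSP-1.0 with RAP-DB annotation. The study names Cufflinks for its calls of differential expression. Whether it also made the FPKM values, and the versions of both programs, are not given in the sources used here, nor is whether strand was used in counting, although the labels call the libraries strand-specific. No coordinates and no sequence were used. A second copy of the table held the same values (0 differences), and 0 sample columns were left unused.

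FPKM were summed per locus, and log2(FPKM + 1) of the 29915 loci (33178 transcripts) above 0 in all 10 libraries was fitted with limma 3.58.1 in R 4.3.3 (5 groups, no covariates, eBayes with intensity trend, two-sided, Benjamini-Hochberg over all tested features). A feature was called at p under 0.05 and at least 1.5 fold, the rule of the study's results. The script was tested on simulated data. FPKM carry no read number, so depth is known only relatively. From ratios of values under 0.15 FPKM it was 0.923 to 1.48 times that of NT replicate 1 in the line libraries and 1.56 times in NT replicate 2, and low values have the larger counting error. The labels number 2 libraries a group and the methods call them biological replicates. Whether they came from separate transformants is not given, so p-values measure the spread between these libraries, which may be in part technical.

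Named were all 6 loci with their transcripts, the OsNAC genes, and for each pathway list (not the marker lists) the most abundant locus and up to 3 called loci with the largest change at an adjusted p under 0.05. Single loci of the marker lists are named only as examples of level. The members and lists were chosen with earlier results of these data known. Alternatives were another pseudocount, filters, scalings, spread estimates and call rules, a replicate block, and each library left out in turn.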

Additional observations from a re-analysis of the deposited data

Results flagged for a closer look

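A difference between lines passed an adjusted p of 0.05 in 2 cases, both between OsNAC10 and OsNAC5 roots. The locus Os03g0401300 had 73.4 and 63.4 FPKM in OsNAC10 roots and 94.0 and 108 FPKM in OsNAC5 roots, a log2 difference of -0.55 (limma adjusted p = 0.0252). Leaving out 1 library at a time moved it between -0.66 and -0.45, with adjusted p of 0.01002 to 0.170. The transcript Os06t0194900-03 had 0.456 and 0.343 FPKM in OsNAC10 roots and 0.783 and 1.15 FPKM in OsNAC5 roots, a log2 difference of -0.49 (limma adjusted p = 0.0203). Neither reached 1.5 fold on the log2(FPKM + 1) scale. Groups of 2 libraries are too small for a check of single outlying samples.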

How the results depend on the processing

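Over 52 log2 differences (each line against NT for the 6 loci and 4 transcripts, and line against line for the main pair of loci) and 19 settings, 944 of 964 values stayed on their side of the call rule. Of the rest, 7 lost a call, 13 gained one and 0 were reversed. A reversal was a change of sign with an unadjusted limma p under 0.05 in the main or the altered fit. Signs also changed outside that rule, among others for 4 values without NT replicate 2 and 3 without OsNAC10 replicate 1. With single libraries left out, Os06g0194900 in OsNAC5 roots ranged from -0.21 to 0.07 against NT. The fall of Os03g0401300 in OsNAC10 roots stayed called throughout. Lost and gained calls against NT are given in the report beside their results, and so are those of Os06g0194900 between lines. Os03g0401300 gained 3 calls in OsNAC10 against OsNAC5 roots (-0.66 to -0.62). With 0.1 FPKM added, 2902 loci were called in OsNAC5, 6068 in OsNAC6 and 4940 in OsNAC9 roots, and 2 sucrose synthase loci in OsNAC5 roots. At 2 fold, 616, 1098, 936 and 1495 loci were called in OsNAC5, OsNAC6, OsNAC9 and OsNAC10 roots, and 0 sucrose synthase loci in OsNAC6 and OsNAC9. By adjusted p under 0.05 alone, in either direction, 7694, 5568 and 8736 loci were called in OsNAC6, OsNAC9 and OsNAC10, and 1, 4 and 2 sucrose synthase loci in OsNAC5, OsNAC6 and OsNAC9 roots. The main counts were 1694, 4011, 3172 and 4608 loci. Leaving out single libraries changed which sucrose synthase loci were called in OsNAC5, OsNAC6 and OsNAC9 roots, as given beside the results of each.

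Centring each library on its median moved the median log2 change over all loci in OsNAC10 roots to 0.11 (0.02 uncentred), and the split of calls to 2353 higher and 2564 lower (1509 and 3099 uncentred). In OsNAC6 roots it gave 2091 higher and 1981 lower (1737 and 2274 uncentred), and 1 call of Os06t0194900-01 was lost there. The cause was not tested. Replicate numbers did not pair the samples in one consistent way. Correlations of same-numbered deviations ran from -0.56 (OsNAC6 with OsNAC9) to 0.37 (OsNAC5 with OsNAC9). They were negative in every pair that held OsNAC6 and above 0 in the others. Whether the numbers mark a shared batch was not tested. A replicate block gave 1688, 3989, 3152 and 4600 loci and changed no call of a sucrose synthase locus or transcript. With the OsNAC6 numbers exchanged, a setting chosen after seeing the data, the counts were 1726, 4044, 3203 and 4640. With 2 libraries a group and unknown absolute depth, changes in members under 4 FPKM are the least certain.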
